A study of Mus musculus with 15 samples.

Results

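Mouse skin tumour cells sorted as low in integrin alpha 6 (a6) and negative for CD34 gave 5 of the 15 RNA-seq libraries of this series, and these 5 libraries differed widely in Itga6, the gene that encodes a6. They were divided by Itga6 at 300 CPM (reads counted for a gene per 1e6 counted in all genes). KO replicate 2 and WT replicate 1 lay at 464.1 and 493.8 CPM and are called the high-Itga6 libraries. KO replicate 1, WT replicate 2 and WT replicate 3 lay at 65.2, 84.1 and 168.1 CPM and are called the low-Itga6 libraries. The values nearest to the threshold were 464.1 CPM above it and 168.1 CPM below it. Itga6 chose the members, so the division is described here and not tested, and the libraries of each side are not groups of the study.

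KO tumours came from mice with floxed Sirt6 alleles (flox/flox) and a Cre recombinase driven by the K14 promoter, which is active in basal keratinocytes, and WT tumours are labelled only as WT. All mice were of the strain C57BL/6, and skin tumours were raised in all of them with the mutagen DMBA and the tumour promoter TPA over a period longer than 24 weeks. Ages are not stated in the labels. The sort also gave CD34-negative a6-high and CD34-positive a6-high cells, and each population had 2 KO and 3 WT libraries. Whether libraries with the same genotype and number came from the same mouse is not stated, and neither is whether replicates came from separate mice, so the spread behind each p-value is that between these samples and may be technical in part. Sirt6 was at 7.65 CPM in KO replicate 2 and 6.95 CPM in KO replicate 1 of the a6-low libraries, against 7.84, 9.42 and 7.06 CPM in the 3 WT libraries, so 1 KO value lay inside the WT range and the other just below it. A count over the whole gene includes exons outside a deleted part and does not check the genotype, so KO and WT are used as labels.

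Integrin alpha 6 pairs with integrin beta 4 in hemidesmosomes, the junctions by which basal keratinocytes are fastened to laminin in the basement membrane. When a keratinocyte leaves the basement membrane it lowers its integrins and laminins, changes keratin 5 and keratin 14 for keratin 1 and keratin 10, and later makes the proteins of the cornified layer. In skin tumours, matrix metalloproteinases, hyaluronan and cytokines made by basal-type tumour cells are known to accompany invasion and inflammation. The sort was made on surface protein and the libraries measure RNA, so an Itga6 level need not follow the sort gate.

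Both high-Itga6 libraries had as much Itga6 RNA as cells sorted as a6-high. The CD34-negative a6-high libraries ranged from 364.6 to 468.9 CPM and the CD34-positive ones from 242.0 to 610.8 CPM. Itga6 RNA, the value that chose them, is thus not low in these 2 libraries titled a6-low, which says nothing of their surface protein. For Cd34, the gene of the other sort marker, KO replicate 2 and WT replicate 1 had 28.9 and 42.2 CPM, against 4.33, 9.23 and 15 CPM in the low-Itga6 libraries. All 5 were far below the 152 to 197 CPM of the CD34-positive libraries. Depth was 10.08 to 28.62 M reads counted in genes per library (M, 1e6), with the shallowest library, WT replicate 2, among the low-Itga6 ones, where 38.04% of records were reads aligned to several places, against 29.86% to 33.66% in the other 14 libraries. The gene with the most reads was Krt14, a basal keratin gene, in all 15 libraries.

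Among the 12 genes with the largest positive differences across the division were 3 matrix metalloproteinase genes that lie close together on chromosome 9, Mmp13 with the largest of all, and their promoters are shown because the 3 genes were high and low together. Each line gives 120 bases that end just before the RefSeq gene start (build GRCm38.p6, plus strand, 5′ to 3′). Capitals mark the sequence TGAGTCA or, read on the other strand, TGACTCA, a binding sequence of AP-1 transcription factors.
Mmp13 (chr9:7272394-7272513): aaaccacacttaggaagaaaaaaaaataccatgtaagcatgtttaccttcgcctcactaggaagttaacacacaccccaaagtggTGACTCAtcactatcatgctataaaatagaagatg
Mmp3 (chr9:7445702-7445821): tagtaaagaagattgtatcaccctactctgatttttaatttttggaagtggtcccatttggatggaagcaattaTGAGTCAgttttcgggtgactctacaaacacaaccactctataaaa
Mmp10 (chr9:7502222-7502341): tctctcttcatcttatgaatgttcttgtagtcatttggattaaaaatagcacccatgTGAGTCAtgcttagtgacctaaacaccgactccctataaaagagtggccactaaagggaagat
The sequence began 35 bases before the start of Mmp13, 46 before that of Mmp3 and 63 before that of Mmp10. In windows from 250 bases before to 50 bases after the start, searched on both strands, it was found in these 3 of the 10 most strongly higher genes that had a window and in 0 of 9 lower ones, and it was found in 5.95% of all 27025 genes with a window. The 3 genes are neighbours of 1 family and were picked from these data, so these counts are not a test. A match describes the letters only. Of 17 measured AP-1 and other immediate early genes 0 differed without overlap by 2-fold or more, where 3.14% of all measured genes did. Without overlap but at any gap, 6 were higher and 3 lower, where 33.4% and 16.2% of all measured genes were. Among the 6 was Fosl1, an AP-1 subunit gene, at 319 and 199 CPM in the high-Itga6 libraries. Its values in the low-Itga6 libraries were 90.1, 78.9 and 109 CPM. The list's median difference was 0.18 on the log2(CPM + 1) scale, and that of Fos, among the 3 lower genes, was -0.75.

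Of 11855 genes with a mean of at least 1 CPM over the 5 libraries, 314 (2.65%) were higher and 58 (0.489%) lower in the high-Itga6 libraries without overlap (3.14% in either direction), with the nearest libraries at least 2-fold apart in CPM + 1. Such genes are called set apart below. Without the 2-fold gap, 33.4% of genes were higher and 16.2% lower with no overlap. Differences are those of mean log2(CPM + 1), high-Itga6 minus low-Itga6, and their median over all genes was 0.17. Scaling the libraries by TMM, which aligns the bulk of genes, lowered that median to 0.04 and turned the counts into 235 higher and 88 lower, so differences are to be read against that shift. Genes chosen on a division by Itga6 include whatever varies with Itga6, and the counts support nothing beyond the description of these 5 libraries. In bulk RNA of sorted cells, fewer cells of a type and less RNA per cell cannot be told apart.

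**Figure D1:**
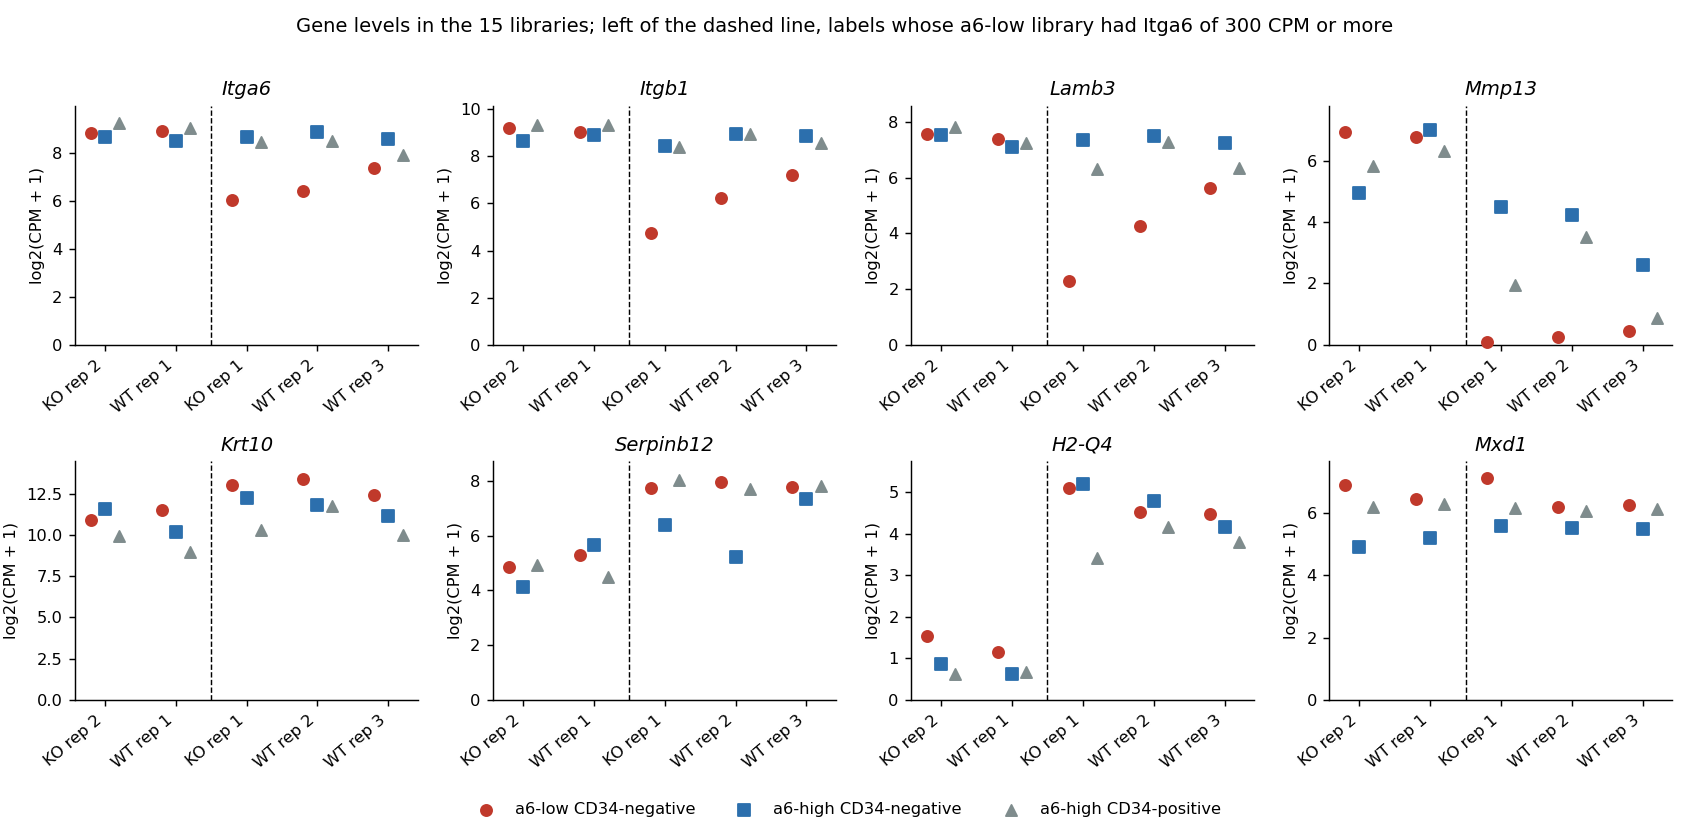
Level of 8 genes in each of the 15 libraries, as log2(CPM + 1), by genotype and replicate label, with colour and shape for the sorted population. Left of the dashed line stand KO replicate 2 and WT replicate 1. In the a6-low libraries Itga6, Itgb1, Lamb3 and Mmp13 were higher there and Krt10, Serpinb12 and H2-Q4 lower than in the other 3 labels. H2-Q4 was divided in the same way in all 3 populations, while Itgb1 and Lamb3 were so in the a6-low population and overlapped in CD34-negative a6-high cells.

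Genes of hemidesmosomes, integrins and the basement membrane were higher in the high-Itga6 libraries. Of 17 listed genes other than Itga6, all measured, 9 were set apart and higher and 0 lower, and 15 did not overlap, with a median difference of 2.04. Lamb3, a chain of the laminin to which epidermal hemidesmosomes bind, was at 187 and 166 CPM in the high-Itga6 libraries, against 3.84, 18.3 and 48 CPM in the low-Itga6 libraries. Itgb1, the beta subunit of the collagen and fibronectin receptors of basal cells, was at 588 and 524 CPM in the high-Itga6 libraries, against 26.1, 74.8 and 146 CPM in the low-Itga6 libraries. Within the low-Itga6 libraries both genes were lowest in KO replicate 1 and highest in WT replicate 3, an order that was not tested. Itga2, a collagen receptor subunit, was at 29.3 and 10.3 CPM in the high-Itga6 libraries, against 0.14, 0 and 0.805 CPM in the low-Itga6 libraries. Col17a1, a transmembrane collagen of hemidesmosomes, was at 490 and 462 CPM in the high-Itga6 libraries, against 21.3, 68.3 and 128 CPM in the low-Itga6 libraries. Lama3, Itgb6, Dst and Plec were also set apart.

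Basal keratinocyte genes were higher too, though fewer stood clear. Of 18 measured, 18 had a positive difference and 4 were set apart, with a median difference of 1.09. Krt5, the type II keratin of basal cells, was at 11826 and 13750 CPM in the high-Itga6 libraries, against 3010, 2170 and 4339 CPM in the low-Itga6 libraries. Igfbp3, which binds insulin-like growth factors, was at 391 and 223 CPM in the high-Itga6 libraries, against 18, 5.06 and 9.78 CPM in the low-Itga6 libraries. Cav1, the coat protein of caveolae, was at 580 and 496 CPM in the high-Itga6 libraries, against 33.6, 65 and 186 CPM in the low-Itga6 libraries. Each of these 3 genes left a gap of over 2-fold between the sides. Igfbp2, a relative of Igfbp3, overlapped, with 181 and 132 CPM in the high-Itga6 libraries and 5.49, 40 and 148 CPM in the low-Itga6 libraries. Sox9, a transcription factor of hair follicle stem cells, was at 982 and 510 CPM in the high-Itga6 libraries, against 202, 189 and 212 CPM in the low-Itga6 libraries. It was the only one of 17 measured hair follicle and tumour stem cell genes to be set apart, and the median of that list was 0.43.

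Proteases and other genes associated with epithelial-mesenchymal transition had a median of 2.39, the highest of the lists apart from those of cell type and sex chromosome markers, with 10 of 17 measured set apart and higher and 0 lower. Mmp13, a collagenase, was at 122 and 110 CPM in the high-Itga6 libraries, against 0.0699, 0.198 and 0.371 CPM in the low-Itga6 libraries, a difference of 6.60. Mmp10, a stromelysin, was at 43.8 and 32.4 CPM in the high-Itga6 libraries, against 0.384, 0 and 0.371 CPM in the low-Itga6 libraries. Mmp3, another stromelysin, was at 38 and 50.9 CPM in the high-Itga6 libraries, against 0.489, 0.0992 and 3.53 CPM in the low-Itga6 libraries. All 3 were thus close to absent from the low-Itga6 libraries, with WT replicate 3 the highest of those for Mmp3. Mmp9, a gelatinase, was at 16.4 and 19.5 CPM in the high-Itga6 libraries, against 0.314, 2.38 and 0.309 CPM in the low-Itga6 libraries. Plau, the urokinase plasminogen activator, was at 53.5 and 24.9 CPM in the high-Itga6 libraries, against 4.02, 2.48 and 2.23 CPM in the low-Itga6 libraries. Plaur, its receptor, was at 497 and 204 CPM in the high-Itga6 libraries, against 35.5, 29.9 and 69.7 CPM in the low-Itga6 libraries. The activator and its receptor were thus high in the same pair of libraries. Mmp14, Tgfb2, Itga5, Sparc and Tgfbi were also set apart, with differences of 3.21, 2.89, 2.96, 2.39 and 1.5. Zeb1, a transcription factor that represses epithelial genes, had no reads in any of the 5 libraries. Vim and Snai2 were not set apart, with differences of -0.13 and 0.94. The epithelial genes Cdh1 and Epcam of the same list were not set apart either, and their differences were positive, 0.8 and 1.21.

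The other genes among the 12 with the largest positive differences had varied roles. Has2, a hyaluronan synthase, was at 273 and 67.1 CPM in the high-Itga6 libraries, against 3.46, 2.18 and 1.42 CPM in the low-Itga6 libraries. Inhba, which encodes the subunit of activin A, was at 201 and 52.9 CPM in the high-Itga6 libraries, against 5.52, 1.88 and 0.805 CPM in the low-Itga6 libraries. Csf3, a growth factor for neutrophils, was at 244 and 37.9 CPM in the high-Itga6 libraries, against 8.98, 7.24 and 4.58 CPM in the low-Itga6 libraries. For these 3 genes KO replicate 2 was well above WT replicate 1, unlike Mmp13, Lamb3 or Krt5, for which that pair lay close together. Cxcl3, a chemokine that draws neutrophils, was at 81.2 and 74 CPM in the high-Itga6 libraries, against 4.61, 2.08 and 1.79 CPM in the low-Itga6 libraries. Tlr2, a receptor for bacterial lipoproteins, was at 71.6 and 17 CPM in the high-Itga6 libraries, against 1.96, 0 and 2.1 CPM in the low-Itga6 libraries. Phldb2, which anchors microtubules near sites of adhesion, was at 41.3 and 18.2 CPM in the high-Itga6 libraries, against 0.559, 0.694 and 2.35 CPM in the low-Itga6 libraries. Atic, an enzyme of purine synthesis and the last of the 12, differed by 3.58.

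Across the cytokine and chemokine list 6 of 20 measured were set apart and higher and 0 lower, with a median difference of 0.98. Cxcl1, which also draws neutrophils, was at 1439 and 471 CPM in the high-Itga6 libraries, against 201, 65.6 and 67.5 CPM in the low-Itga6 libraries. Il1a, an alarm cytokine of keratinocytes, was at 91.2 and 28.9 CPM in the high-Itga6 libraries, against 9.5, 5.36 and 4.21 CPM in the low-Itga6 libraries. Tnf and Cxcl2 were set apart with differences of 2.07 and 2.43, and Cxcl16 with one of 1.70. Cxcl5 was at 118 and 9.37 CPM in the high-Itga6 libraries, against 2.03, 2.68 and 6.07 CPM in the low-Itga6 libraries, so its difference of 3.03 rests on KO replicate 2. Markers of neutrophils and mast cells did not separate the sides: of 14 such genes 2 were measured, their summed level was 41.8 to 61.5 CPM in the high-Itga6 libraries and 22 to 78.2 CPM in the low-Itga6 libraries, and 7 markers, Elane and Retnlg among them, were at 0 in all 5.

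**Figure D2:**
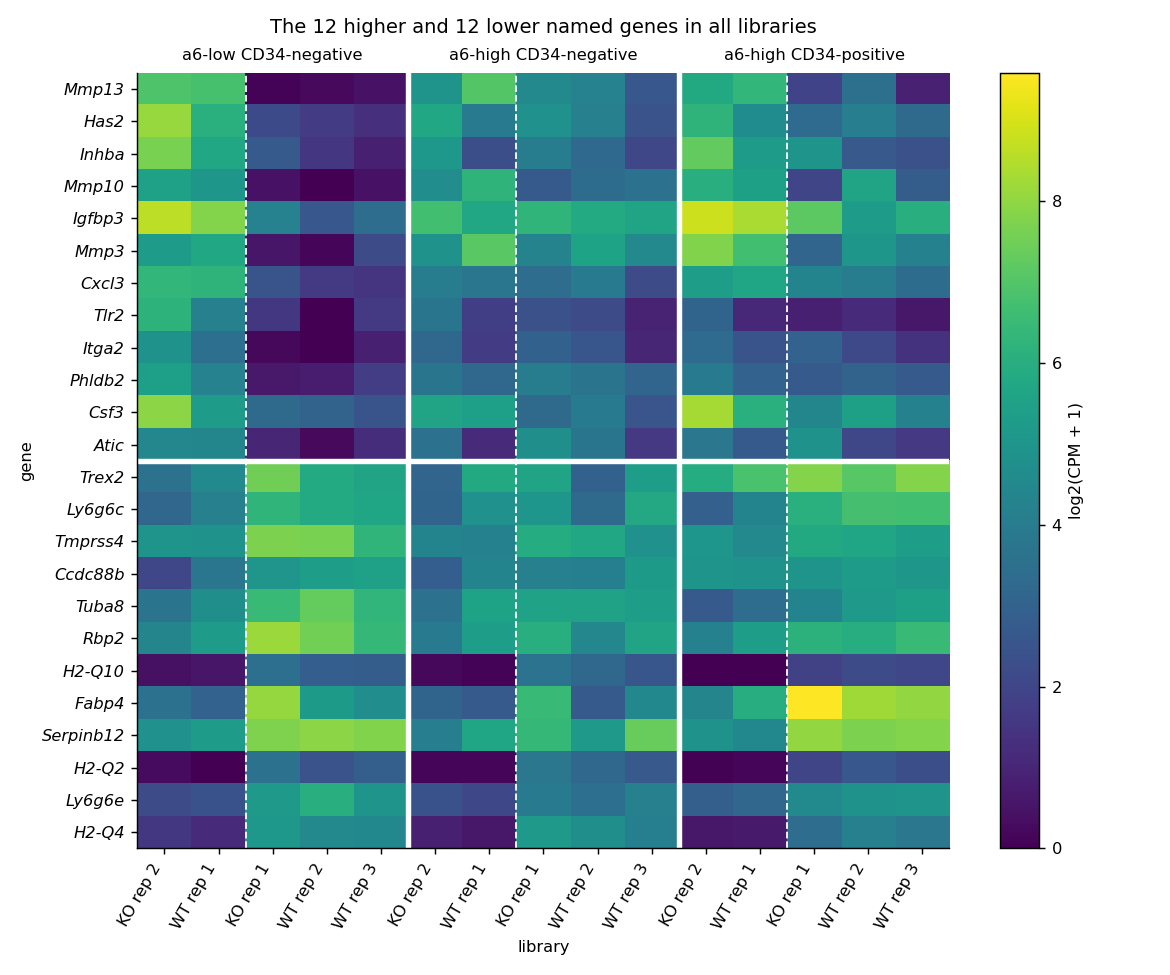
Levels of the 12 genes with the largest positive (top) and the 12 with the largest negative (bottom) difference across the division, as log2(CPM + 1) in colour, in the a6-low, CD34-negative a6-high and CD34-positive a6-high libraries. Dashed white lines separate KO replicate 2 and WT replicate 1 from the other labels in each population. Among the lower genes the H2-Q rows show the same pattern in all 3 populations.

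Notch pathway genes, which act in the step of keratinocytes from the basal to the suprabasal layers, were also higher, with 3 of 11 measured set apart and a median difference of 1.01. Jag2, a ligand, was at 58 and 61.7 CPM in the high-Itga6 libraries, against 2.83, 11.8 and 21.2 CPM in the low-Itga6 libraries. Dll1, another ligand, was at 18.6 and 26.4 CPM in the high-Itga6 libraries, against 2.2, 4.17 and 6.56 CPM in the low-Itga6 libraries. Notch1, the receptor, was at 130 and 89.2 CPM in the high-Itga6 libraries, against 39.3, 25.4 and 35 CPM in the low-Itga6 libraries. Of hypoxia-responsive genes 3 of 16 were set apart and higher, with a median of 0.82. P4ha1, a collagen prolyl hydroxylase, was at 48 and 33 CPM in the high-Itga6 libraries, against 4.61, 6.94 and 8.42 CPM in the low-Itga6 libraries. Ndrg1 and Angptl4 differed by 2.32 and 2.31. Of cell cycle inhibitors and p53 targets 3 of 16 were set apart and higher, with a median of 0.74, among them Mdm2, the ubiquitin ligase that holds p53 in check, at 552 and 200 CPM in the high-Itga6 libraries, against 78, 55.7 and 51.2 CPM in the low-Itga6 libraries. Gadd45a and Cdkn1c were the other 2, with differences of 2.09 and 1.62.

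Differentiation genes ran the other way but with smaller gaps. Of 24 measured suprabasal keratinocyte genes 0 were set apart in either direction, 12 were lower without overlap, and the median difference was -0.44. Krt1, a suprabasal keratin gene, stood at 2213 and 2890 CPM in the high-Itga6 libraries, against 12010, 9794 and 5230 CPM in the low-Itga6 libraries. Krt10, its partner, was at 1910 and 2976 CPM in the high-Itga6 libraries, against 8223, 10973 and 5579 CPM in the low-Itga6 libraries. Both keratins were lower in each high-Itga6 library than in any low-Itga6 library, and WT replicate 3 came nearest. Of 22 measured cornified envelope genes 0 were set apart, with a median of -0.59 that was 0.07 without KO replicate 1. Casp14, a protease of late differentiation, was at 13.3 and 32.7 CPM in the high-Itga6 libraries, against 101, 103 and 50.3 CPM in the low-Itga6 libraries. Cdsn, a corneodesmosome protein, was at 1.64 and 1.83 CPM in the high-Itga6 libraries, against 25.2, 1.69 and 1.73 CPM in the low-Itga6 libraries, so only KO replicate 1 was high. Stress and wound keratinocyte genes had a median of -0.84 with 0 of 12 set apart.

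Of 17 measured sebaceous and upper follicle genes 1 was higher and 1 lower and set apart, with a median of -0.87. Cst6, a protease inhibitor of the upper epidermis and follicle, was at 41.7 and 69.9 CPM in the high-Itga6 libraries, against 164, 354 and 141 CPM in the low-Itga6 libraries. Plet1, a marker of the follicle junctional zone, was at 3227 and 1624 CPM in the high-Itga6 libraries, against 746, 425 and 442 CPM in the low-Itga6 libraries. Fabp5, the epidermal fatty acid binding protein, was at 4103 and 5208 CPM in the high-Itga6 libraries, against 17751, 14625 and 10092 CPM in the low-Itga6 libraries. Fabp5 and Elovl4, a fatty acid elongase with a difference of -2.03, did not overlap but fell short of the 2-fold gap.

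The 12 genes with the largest negative differences also had varied roles. Serpinb12, a protease inhibitor, was at 28 and 38.3 CPM in the high-Itga6 libraries, against 212, 244 and 218 CPM in the low-Itga6 libraries. Rbp2, a retinol binding protein, was at 19.4 and 38.1 CPM in the high-Itga6 libraries, against 283, 186 and 82.1 CPM in the low-Itga6 libraries. Tmprss4, a transmembrane serine protease, was at 30.2 and 29.1 CPM in the high-Itga6 libraries, against 205, 199 and 75.4 CPM in the low-Itga6 libraries. In each of these both high-Itga6 libraries were under 40 CPM and all 3 low-Itga6 libraries over 75 CPM. Fabp4, a fatty acid binding protein of fat cells and macrophages, was at 11.1 and 7 CPM in the high-Itga6 libraries, against 265, 36.6 and 25.1 CPM in the low-Itga6 libraries, with KO replicate 1 far above the rest. Ly6g6e and Ly6g6c, of the Ly6 family, differed by -3.08 and -2.26. Tuba8, a tubulin, Trex2, an exonuclease of keratinocytes, and Ccdc88b differed by -2.47, -2.25 and -2.38. The remaining 3 of the 12, H2-Q4, H2-Q2 and H2-Q10, are described with the a6-high libraries.

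**Figure D3:**
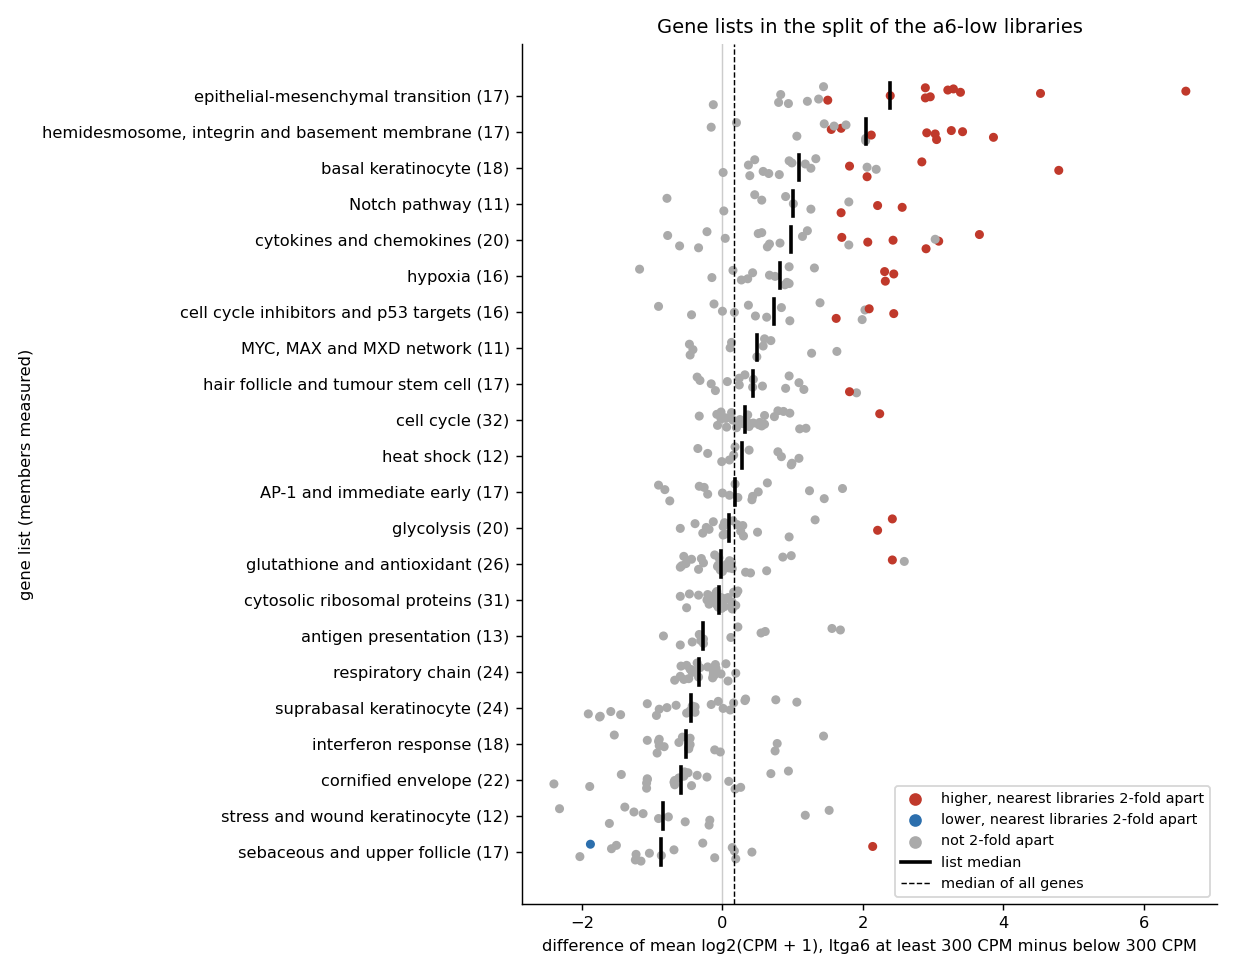
Difference of mean log2(CPM + 1), high-Itga6 minus low-Itga6 libraries, for every measured member of each gene list, with the number measured in brackets. Red and blue points are genes set apart and higher or lower, grey points the rest, black bars the list medians, and the dashed line the median of all genes, 0.17. Most genes of the epithelial-mesenchymal transition list, proteases among them, and of the hemidesmosome list lie to the right. Most sebaceous, stress and cornified envelope genes lie to the left.

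Counts for the growth and metabolism lists are to be read beside the 3.14% of all measured genes that were set apart. Of 32 cell cycle genes 1, Cenpf, was set apart, and the list's median was 0.32, with -0.15 without WT replicate 1 and -0.07 without WT replicate 2. Mki67, a marker of cycling cells, was at 45 and 61.9 CPM in the high-Itga6 libraries, against 30.2, 13.5 and 33.6 CPM in the low-Itga6 libraries, a difference that did not reach the 2-fold gap. Of 20 glycolysis genes 2 were set apart, Slc16a3, a lactate exporter, and Pfkfb3, which makes an activator of glycolysis, with differences of 2.42 and 2.21. The median of the glycolysis list was 0.10, with -0.05 after TMM scaling and -0.03 without WT replicate 1. Of 26 glutathione and antioxidant genes 1, Txnrd1, a thioredoxin reductase, was set apart, at 242 and 78.9 CPM in the high-Itga6 libraries, against 35.9, 16.7 and 26.1 CPM in the low-Itga6 libraries. The medians were -0.02 for that list, -0.05 for 31 ribosomal protein genes and -0.33 for 24 respiratory chain genes. Of the respiratory chain genes 15 were lower without overlap, where 16.2% of all measured genes were. The medians were 0.28 for 12 heat shock genes and 0.49 for 11 genes of the MYC, MAX and MXD network. No gene was set apart in the ribosomal protein, respiratory chain, heat shock and MYC lists.

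Interferon and antigen presentation genes followed KO replicate 1 rather than the division. Of 18 and 13 measured genes 0 were set apart, and the medians of -0.53 and -0.27 became 0.41 and 0.22 without that library.

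Markers of cells other than keratinocytes were low. Those of macrophages and dendritic cells summed to 26.6 to 51.8 CPM in the high-Itga6 libraries and 27 to 77.5 CPM in the low-Itga6 libraries, with 11 of 18 measured. Endothelial markers summed to 28.7 to 38.8 CPM in the high-Itga6 libraries and 6.6 to 31 CPM in the low-Itga6 libraries, with 6 of 15 measured. Fibroblast and pericyte markers summed to 164 to 210 CPM in the high-Itga6 libraries and 126 to 178 CPM in the low-Itga6 libraries, with 3 of 14 measured and Lum and Dpt at 0. Each of these 3 summed ranges overlapped between the sides. Without overlap, 3 of the 6 endothelial and 2 of the 3 fibroblast and pericyte markers were higher, where 33.4% of all measured genes were. So few markers cannot be told apart from that share. Flt1, a receptor for vascular growth factors, was at 19.5 and 8.93 CPM in the high-Itga6 libraries, against 1.12, 4.96 and 0.681 CPM in the low-Itga6 libraries. Acta2, the smooth muscle actin gene, was at 71.1 and 87.2 CPM in the high-Itga6 libraries, against 36.9, 45.2 and 29.1 CPM in the low-Itga6 libraries. Of 14 markers of T and natural killer cells 1 was measured and 7, Cd3e and Cd8a among them, were at 0. Melanocyte markers summed to 1.43 to 3.93 CPM in the high-Itga6 libraries and 2.1 to 138 CPM in the low-Itga6 libraries, the highest value being that of KO replicate 1, where Tyrp1, a pigment enzyme, was at 60.7 CPM. Reads of the Y-linked gene Ddx3y came to 78 CPM in KO replicate 2 and to at most 0.198 CPM in the others, so that gene's difference of 3.05 comes from 1 library. The Y-linked and X-inactivation list had a mean log2(CPM + 1) of 4.31 in that library. It had 4.22 and 4.2 in the CD34-negative and CD34-positive a6-high libraries of KO replicate 2, against 1.11 to 1.68 in all other libraries. The comparison of labels below includes this difference. The part of these markers in the differences was not tested.

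The same labels were next compared in libraries that Itga6 had not chosen, the 10 a6-high libraries. KO replicate 2 and WT replicate 1 were set against KO replicate 1, WT replicate 2 and WT replicate 3 in each a6-high population, with genotype as a term (edgeR quasi-likelihood test, Benjamini-Hochberg adjusted p under 0.05). In CD34-negative a6-high cells 10 of 14214 genes (0.0704%) were called, 0 higher and 10 lower. In CD34-positive a6-high cells 9 (0.0633%) were called, 1 higher and 8 lower, and the 8 lower genes were also called in the CD34-negative cells. All 10 of the first set and 8 of the second were set apart in the a6-low libraries in the same direction. The members of the hemidesmosome, basal, protease and differentiation lists were absent from both sets of calls.

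H2-Q4, H2-Q2 and H2-Q10, class I histocompatibility genes of the Q region on chromosome 17, carried this pattern through all 3 populations. In a6-low cells H2-Q4 was at 1.9 and 1.23 CPM in the high-Itga6 libraries, against 33.2, 21.9 and 21.4 CPM in the low-Itga6 libraries. In CD34-negative a6-high cells H2-Q4 was at 0.809 and 0.535 CPM in KO replicate 2 and WT replicate 1, against 35.5, 26.5 and 16.8 CPM in the other 3 labels. In CD34-positive a6-high cells H2-Q4 was at 0.534 and 0.603 CPM in KO replicate 2 and WT replicate 1, against 9.63, 17 and 12.9 CPM in the other 3 labels. The 6 libraries of the first pair of labels thus reached at most 1.9 CPM and the 9 others at least 9.63 CPM. H2-Q4 fell by 5.36 ± 0.38 on the log2 scale (SE) in CD34-negative and by 4.44 ± 0.37 in CD34-positive a6-high cells (edgeR adjusted p = 0.0035 and 0.0121). H2-Q2 fell by 6.26 ± 0.56 and 5.65 ± 0.57 there (edgeR adjusted p = 0.014 and 0.0225), and H2-Q10 was below 0.5 CPM in all 6 libraries of KO replicate 2 and WT replicate 1, against 2.58 to 11.5 CPM in the remaining 9. Reads aligned to several places were kept apart from genes by the counter, and histocompatibility genes have near-identical copies, so these levels are uncertain.

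Pseudogenes and genes with no symbol made up most of the other calls. Cap1, an actin-binding protein gene, fell by 3.52 ± 0.38 on the log2 scale in CD34-negative a6-high cells (edgeR adjusted p = 0.0196). Its a6-low values were 16.9 and 22.3 CPM in the high-Itga6 libraries, against 93.6, 72.8 and 77.4 CPM in the low-Itga6 libraries. H2-Bl, H2-T-ps, Gm13443 and Atp6v0c-ps2 are annotated as pseudogenes, and 2 further called genes had no symbol in the annotation used. The 1 gene called higher was Egln3, an oxygen-sensing prolyl hydroxylase, in CD34-positive a6-high cells (log2 2.36 ± 0.22 SE, edgeR adjusted p = 0.0193). Egln3 was at 110 and 84.3 CPM there in KO replicate 2 and WT replicate 1, against 16.8, 22 and 16.3 CPM in the other 3 labels, whereas in the a6-low libraries it overlapped, at 148 and 55.1 CPM in the high-Itga6 libraries and 97.2, 79.7 and 44.4 CPM in the low-Itga6 libraries. No gene passed a test of whether the difference between these labels depended on the a6-high population (edgeR, 0 of 14214). In that edgeR test 509 genes had an unadjusted p under 0.05.

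These counts rested on few libraries. In CD34-negative a6-high cells the count was 1, 2, 0, 2 and 4 without the library of KO replicate 1 or 2 or of WT replicate 1, 2 or 3, in that order. In CD34-positive a6-high cells it was 0, 0, 0, 4 and 1 without the same labels. A fit of the 5 CD34-negative a6-high libraries alone called 0 (edgeR, 713 at an unadjusted p under 0.05, and 61 by DESeq2 in all 10 libraries).

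Of the 314 genes set apart and higher in a6-low cells, 4 (1.27%) were also set apart and higher between the same labels in CD34-negative a6-high cells and 19 (6.05%) in CD34-positive a6-high cells, where 0.0844% and 0.321% of all measured genes were. Mmp12, the macrophage elastase, was the 1 gene in both, where 4 genes (0.0337%) of all measured were. In a6-low cells it was at 23.2 and 12.8 CPM in the high-Itga6 libraries, against 1.85, 2.28 and 0 CPM in the low-Itga6 libraries. In CD34-positive a6-high cells it was at 20 and 12.1 CPM in KO replicate 2 and WT replicate 1, against 1.15, 4.68 and 0.0753 CPM in the other 3 labels. The other 292 of the 314 were set apart in neither a6-high population. By sign alone, 297 of the 314 (94.6%) differed in the same direction in CD34-positive and 175 (55.7%) in CD34-negative a6-high cells. For the 58 lower genes these counts were 57 and 49. The share of all measured genes with the same sign is not given here. Of the 58 lower genes, 17 (29.3%) were set apart and lower in each a6-high population, against 0.219% of all measured genes in CD34-negative and 0.27% in CD34-positive cells, and 13 in both, where 0.135% of all measured genes were. Of those 13, 6 had a histocompatibility (H2) symbol, and Ly6g6e was another. Ly6g6e was at 3.63 and 4.29 CPM in the high-Itga6 libraries, against 34.8, 65.2 and 30.2 CPM in the low-Itga6 libraries, and its 6 libraries of KO replicate 2 and WT replicate 1 stayed under 8 CPM while the other 9 lay at 10.4 CPM or more.

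**Figure D4:**
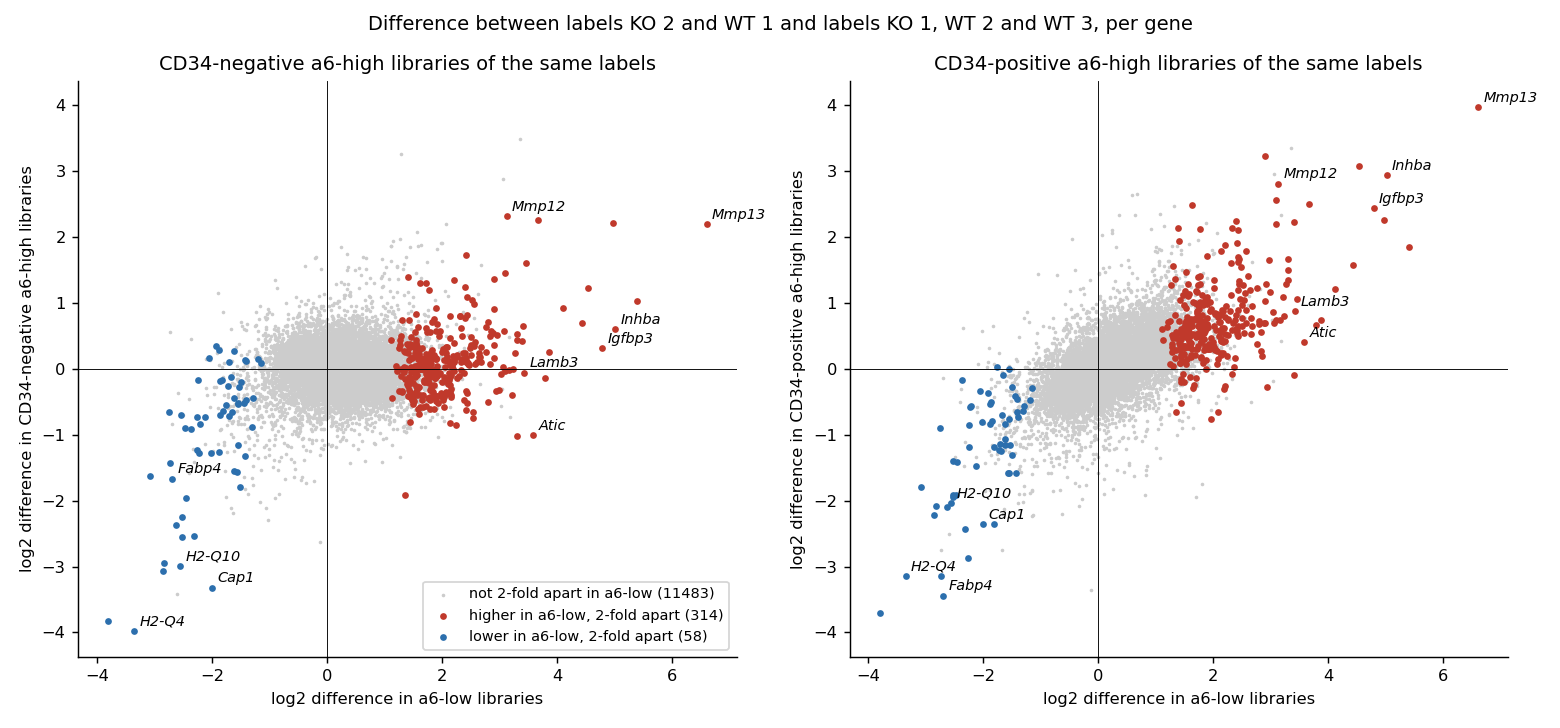
Per gene, the difference of mean log2(CPM + 1) between KO replicate 2 with WT replicate 1 and the other 3 labels, in the a6-low libraries (x axis) and in the a6-high libraries of the same labels (y axis; left panel CD34-negative, right panel CD34-positive). Red and blue points are the 314 higher and 58 lower genes of the a6-low libraries. In CD34-negative cells the red points spread around 0 with a median of 0.05, and in CD34-positive cells their median was 0.65.

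The median difference of the 314 genes was 1.87 in the a6-low libraries, 0.05 in CD34-negative and 0.65 in CD34-positive a6-high cells. For adhesion genes the a6-high libraries of all labels were alike: Lamb3 was at 182 and 137 CPM in CD34-negative a6-high cells of KO replicate 2 and WT replicate 1, against 163, 178 and 152 CPM in the other 3 labels. Itgb1 was at 405 and 484 CPM in KO replicate 2 and WT replicate 1 there, against 345, 501 and 464 CPM in the other 3 labels. The ranges overlapped for both, and so did that of Krt5, at 11248 and 6616 CPM in KO replicate 2 and WT replicate 1, against 13960, 13737 and 7370 CPM in the other 3 labels. Mmp13 differed by label in these cells as well, with 29.8 and 128 CPM in KO replicate 2 and WT replicate 1, against 21.7, 17.8 and 5.04 CPM in the other 3 labels, but did not pass the test (edgeR adjusted p = 0.864). In CD34-positive a6-high cells Mmp13 was at 55.8 and 79.5 CPM in KO replicate 2 and WT replicate 1, against 2.81, 10.5 and 0.829 CPM in the other 3 labels (edgeR adjusted p = 0.37).

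Both high-Itga6 libraries were then placed among the CD34-negative a6-high libraries. The genes were picked by the other CD34-negative libraries, except that the minimum mean of 1 CPM also counted these 2. In 27 of 11872 genes, Itga6 among them, all 3 low-Itga6 libraries lay at least 2-fold outside the range of the 5 CD34-negative a6-high libraries, 8 above it (0.0674%) and 19 below it (0.16%). Of the 18 below it other than Itga6, which chose the libraries, KO replicate 2 had 8 inside the a6-high range, 8 above it and 2 below it, and WT replicate 1 had 11 inside and 7 above it. Tnc, the matrix protein tenascin C, was at 71.5 and 56.5 CPM in the high-Itga6 libraries and 2.1, 7.44 and 13.2 CPM in the low-Itga6 libraries, against 37.2 to 50.4 CPM in CD34-negative a6-high cells. Ptgs2, the inducible cyclooxygenase, was at 214 and 393 CPM in the high-Itga6 libraries and 74.8, 22.6 and 87.9 CPM in the low-Itga6 libraries, against 185 to 322 CPM in CD34-negative a6-high cells. Both genes were at or over the a6-high level in the high-Itga6 libraries, whereas Plod1, a collagen lysyl hydroxylase, at 7.34 CPM in KO replicate 2, was below the a6-high minimum of 8.85 CPM.

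Most genes that were higher in the low-Itga6 libraries than in a6-high cells were so in the high-Itga6 libraries too. Of the 8 such genes, KO replicate 2 was also above the a6-high range in 5 and WT replicate 1 in 7, and both were inside it for 1, Pla2g4e. Both libraries were above it for Gng11, at 1.21 and 1.83 CPM, but this gene passed the minimum mean only through these values. Slpi, a protease inhibitor of epithelia, was at 1150 and 781 CPM in the high-Itga6 libraries and 4560, 1280 and 1620 CPM in the low-Itga6 libraries, against 103 to 508 CPM in CD34-negative a6-high cells. Krt79, a keratin of the follicle opening and sebaceous duct, was at 38.4 and 115 CPM in the high-Itga6 libraries and 125, 364 and 74.2 CPM in the low-Itga6 libraries, against 2.19 to 10.4 CPM in CD34-negative a6-high cells. Defb6, a beta-defensin, was at 5.36 and 9.82 CPM in the high-Itga6 libraries and 30.4, 53.1 and 6.81 CPM in the low-Itga6 libraries, against 0.438 to 1.4 CPM in CD34-negative a6-high cells. Krt79 and Defb6 were the 2 genes (0.0168% of those measured) for which all 5 a6-low libraries lay at least 2-fold above every CD34-negative a6-high library, and 0 genes did so below. By whole profile, the high-Itga6 libraries correlated at a Pearson r of 0.972 across 11855 genes, the low-Itga6 libraries at 0.952 to 0.973 among themselves, and pairs across the division at 0.904 to 0.956. With its closest CD34-negative a6-high library, KO replicate 2 reached 0.958 and WT replicate 1 reached 0.97. KO replicate 1, WT replicate 2 and WT replicate 3 reached 0.958, 0.947 and 0.977 there. With their closest a6-low library these 3 reached 0.953, 0.973 and 0.973. These values describe libraries that share the genes counted and differ in depth.

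With all 5 a6-low libraries taken as labelled, 1 of 14652 genes differed from CD34-negative a6-high cells (0.00683% higher, 0 lower; edgeR quasi-likelihood test, with 1620 at an unadjusted p under 0.05 and 242 by DESeq2). That gene was Mxd1, which encodes a MAX-binding repressor known to rise when keratinocytes differentiate. It rose by 1.41 ± 0.15 on the log2 scale (SE, edgeR adjusted p = 0.00798). Mxd1 was at 119 and 85.8 CPM in the high-Itga6 libraries and 137, 72.7 and 74.5 CPM in the low-Itga6 libraries, against 29.1 to 46.6 CPM in CD34-negative a6-high cells. All 5 a6-low libraries were above all 5 CD34-negative a6-high libraries, so the division did not separate this gene. A fit of the 10 CD34-negative libraries alone called 0 genes (edgeR, 1363 at an unadjusted p under 0.05), and leaving out the a6-low library of KO replicate 2 raised the count to 50. It was 2 without KO replicate 1 or WT replicate 1 of the a6-low libraries or WT replicate 2 of the a6-high libraries. No gene passed a test of whether this a6-low against a6-high difference was unlike in KO and WT (edgeR, 0 called, 168 at an unadjusted p under 0.05).

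Taking away either side changed the count in unequal ways. Without the high-Itga6 libraries 342 of 15364 genes (2.23%) were called, 125 higher and 217 lower. Without the low-Itga6 libraries 22 of 15262 (0.144%) were called, 22 higher and 0 lower. Since libraries were set aside by their Itga6, these counts describe the libraries and are not independent evidence of a difference between sort gates. Among the 22 were Rela and Relb, subunits of the transcription factor NF-kB, and Traf1 and Tnip1, which act in its signalling. Rela was at 595 and 299 CPM in the high-Itga6 libraries and 168, 159 and 199 CPM in the low-Itga6 libraries, against 132 to 181 CPM in CD34-negative a6-high cells. Relb was at 87 and 46 CPM in the high-Itga6 libraries and 17.7, 10.7 and 16.6 CPM in the low-Itga6 libraries, against 7.35 to 21.4 CPM in CD34-negative a6-high cells. Both were thus above the a6-high range in the high-Itga6 libraries only, apart from Rela in WT replicate 3. Fas, a death receptor, was at 117 and 49.8 CPM in the high-Itga6 libraries and 2.24, 8.93 and 11.3 CPM in the low-Itga6 libraries, against 7.31 to 26.3 CPM in CD34-negative a6-high cells. Hmox1, the haem-degrading oxygenase, was at 171 and 88 CPM in the high-Itga6 libraries and 51.7, 10.6 and 13.1 CPM in the low-Itga6 libraries, against 3.29 to 31.7 CPM in CD34-negative a6-high cells.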

How the data were processed

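Sorted cells went through SMART-Seq v4 cDNA synthesis, which does not mark strand, per the labels' protocols. The deposited values are raw counts of reads per Ensembl gene (37583 genes), with no normalization by the authors. The submitters' processing notes name STAR 2.3.0, Picard 1.100, HTSeq 0.6.0 and mm9, without the annotation release. Left out of all totals were 5 entries without a gene: reads aligned to several places (29.86% to 38.04% of records), outside genes (2.61% to 5.13%) and ambiguous (1.86% to 2.2%), besides 2 others. Symbols (87.4% of genes) came from GENCODE M21 by identifier, and promoters from RefSeq GRCm38.p6. Depth was 10.08 to 28.62 M, and the few libraries limit precision more than depth does.

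CPM used the sum of all genes, and differences a pseudocount of 1. Tests were edgeR 4.0.16 quasi-likelihood (R 4.3.3, TMM, filterByExpr, Benjamini-Hochberg at 0.05) in 1 fit of all 15 libraries, or of the 10 a6-high libraries for the same labels, and were tried on simulated data. Standard errors were derived from the F statistic. DESeq2 1.42.0, other scalings, filters, pseudocounts and gaps, and leaving out libraries were alternatives. Of the genes set apart with a mean of at least 4 CPM, the 12 with the largest difference in each direction were named, leaving out predicted genes, pseudogenes and genes with no symbol, and up to 4 members per list. Other named genes, Tnc, Ptgs2, Slpi, Pla2g4e and the 22 called without the low-Itga6 libraries among them, were picked with their values in view. The members and gene lists were chosen with earlier results of these data known. The mitochondrially encoded list matched no symbol and is not analysed here. Chi-square per degree of freedom between replicates was 35.3 to 274, over sampling noise in each pair. Deviations of a6-low and CD34-negative a6-high libraries with the same label correlated at 0.478 for both KO labels. That is 1 value, since deviations of 2 libraries from their mean are mirror images. For WT replicates 1, 2 and 3 the values were 0.037, -0.017 and 0.499. They were not above 0.1 in each, so labels were not taken as pairs in that comparison. Against CD34-positive a6-high libraries, which it does not use, the values were 0.308 to 0.622.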

Additional observations from a re-analysis of the deposited data

How the results depend on the processing

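Over the 5 a6-low libraries the count of genes set apart, 372, was 219 with a pseudocount of 4, 5875 with any gap and 39 with a 4-fold gap, each by construction, and 404 to 1101 when 1 library was left out, where fewer libraries must be separated. It was 323 with TMM, 479 with a pseudocount of 0.25, 262 with a minimum of 10 CPM and 375 with none. For a6-low against CD34-negative a6-high cells the count of 1 was 342 without the high-Itga6 and 22 without the low-Itga6 libraries, 242 with DESeq2, 602 with no filter, 3 with a filter of 10 CPM in 2 libraries, 0 in the CD34-negative libraries alone and 1 to 50 with 1 library left out. Mxd1 was among the calls in each of these except the fit of CD34-negative libraries alone. With genotype and replicate number as a replicate block the count was 60 (52 higher, 8 lower). In that check 3 of 5 a6-low libraries deviated most like the CD34-negative a6-high library of their own label, and 5 of 5 like the CD34-positive one, a hint from the data and not from the design. Both KO libraries are 1 outcome in each of these counts, because their deviations are mirror images. Between the same labels of a6-high cells, the count of 10 in CD34-negative cells was 61 with DESeq2, 49 with no filter, 0 in the 5 libraries alone and 0 to 4 with 1 left out. The count of 9 in CD34-positive cells was 156 with DESeq2, 122 with no filter and 0 to 4 with 1 left out. The causes of the shifts with the tool, the filter and the fit were not tested. No gene set apart changed sign under an alternative, but a 2-fold gap without overlap leaves little room for that, so it is no sign of stability. List medians moved by less than the spread between replicates in 194 of the alternative settings and by more in 38, and differences of named genes in 947 and 85. Sign changes of list medians not given above were those of AP-1 genes (-0.01 without KO replicate 2), glutathione genes (0.03 without WT replicate 1 and 0.02 without WT replicate 2), ribosomal protein genes (0.04 without WT replicate 2), T and natural killer cell markers (-0.33 without WT replicate 2) and Y-linked and X-inactivation genes (-0.03 without KO replicate 2). With 2 libraries on one side of the division and 3 on the other, depth limits little beside the number of libraries, except near 1 CPM in the shallowest one, WT replicate 2.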
